A study of Mus musculus with 19 samples.

Results

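Metallothionein and antioxidant response genes were followed through quadriceps muscle of AR113Q mice, a knock-in model of spinal and bulbar muscular atrophy (SBMA), and of wild-type controls. The members are 10 genes chosen by name: Mt1, Mt2, Hmox1, Nqo1, Gclc, Gclm, Txnrd1, Srxn1, Sod1 and Sod2. The array reads them with 12 probes of 39429, and they are 10 of 30214 genes that it names. Every probe that carries a member's name was kept.

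Each sample was hybridised to its own one-colour array, 19 in all. CTR-NCD are 5 wild-type samples on normal chow and AR113Q-NCD are 5 knock-in samples on the same chow. CTR-HFD are 4 wild-type samples given high-fat diet from 40 days of age and AR113Q-HFD are 5 knock-in samples given the same diet from that age. All animals were males of the C57Bl6J background, killed at 180 days. The knock-in allele encodes an expanded polyglutamine tract, and its expression is not restricted to muscle. The sources used here do not say that each sample is a separate mouse, so p-values measure the spread between samples, part of which may be technical.

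Metallothioneins are small cysteine-rich proteins that bind zinc and copper, and their genes are induced by zinc through the metal-responsive factor MTF1, by glucocorticoids and by oxidants. The other members belong to the antioxidant response, which is led by the factor NRF2. KEAP1 holds NRF2 for degradation, oxidants release it, and NRF2 then binds antioxidant response elements together with small MAF proteins, at sites that BACH1 can occupy as a repressor.

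Values below are log2 signals, that is, the log2 of a probe's processed intensity minus the 75th percentile of its array. A value of 0 is thus the 75th percentile, and levels of different probes are not on a common scale. The subtracted percentile was itself 9.63 to 9.87 over CTR-NCD and 9.77 to 10.18 over AR113Q-NCD arrays. It was 9.63 to 9.97 over CTR-HFD and 9.99 to 10.31 over AR113Q-HFD arrays. Genotype differences below are thus relative to a percentile that tended to be higher in AR113Q. All 12 probes were well above background on 19 of 19 arrays and none was saturated. A member is called changed at an adjusted p under 0.05 from limma, adjusted over 32026 probes, and a gene with several probes is represented by the brighter probe. The share of spots well above background was 67.8% to 80.6% across the arrays, and a Y-linked gene was well above background on 19 of 19 arrays. Of 6 skeletal muscle fiber markers, 5 (Acta1, Ckm, Myh4, Mylpf and Tnnt3) were lower in AR113Q on both diets, and Des was higher on high-fat diet (0.32, limma adjusted p = 0.0369). The mean level of the 6 markers spanned 7.32 to 7.58 over CTR-NCD and 7.35 to 7.49 over CTR-HFD arrays, but 6.98 to 7.13 over AR113Q-NCD and 6.93 to 7.13 over AR113Q-HFD arrays. Of 7 slow fiber markers, 7 had a mean difference above 0 on each diet but 0 were called, and their mean level ranged widely within groups. It spanned 0.23 to 4.60 over CTR-NCD and -1.50 to 4.84 over CTR-HFD arrays, and 4.43 to 5.54 over AR113Q-NCD and -0.13 to 4.17 over AR113Q-HFD arrays. Markers of macrophages, white adipocytes, brown adipocytes, red blood cells and endothelial cells had 0 called genes on either diet, and 1 of 5 Schwann cell markers, S100b, was higher on chow. Of 4 brown adipocyte markers 3 were tested, with a median difference of 2.08 on chow (3 above 0) and 1.19 on high-fat diet (2 above 0). Averaged over both diets, Atp2a2 (slow fiber), S100b (Schwann cell), Cidea (brown adipocyte) and Mrc1 (macrophage) were called higher. Slc4a1 (red blood cell) and the same 5 skeletal muscle fiber markers were called lower in that comparison. Within groups, 0 of 20 relations between a member and the mean level of either fiber list passed an adjusted permutation p under 0.05. The part of fiber composition in the differences between groups was not tested, and in whole muscle fewer cells of a type and less RNA per cell cannot be told apart.

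The promoters of 4 members are printed because their windows hold matches to the metal or antioxidant response element core. Each of these 4 members was also called in a genotype comparison. Each run is the 250 bases before the RefSeq transcription start in GRCm38.p6, read 5′ to 3′ on the gene's strand. The windows are chr8:94178839-94179088 for Mt1, chr8:94172368-94172617 for Mt2, chr3:122245307-122245556 for Gclm and chr16:90220512-90220761 for Sod1, all on the plus strand. Capitals mark matches to the core of the metal response element (TGCACNC or TGCGCNC) or of the antioxidant response element (TGACNNNGC), on either strand.
Mt1: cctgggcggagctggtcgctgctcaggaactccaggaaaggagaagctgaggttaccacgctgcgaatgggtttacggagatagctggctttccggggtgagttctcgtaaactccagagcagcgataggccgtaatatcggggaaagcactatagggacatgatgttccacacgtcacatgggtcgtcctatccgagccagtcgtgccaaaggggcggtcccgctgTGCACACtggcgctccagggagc
Mt2: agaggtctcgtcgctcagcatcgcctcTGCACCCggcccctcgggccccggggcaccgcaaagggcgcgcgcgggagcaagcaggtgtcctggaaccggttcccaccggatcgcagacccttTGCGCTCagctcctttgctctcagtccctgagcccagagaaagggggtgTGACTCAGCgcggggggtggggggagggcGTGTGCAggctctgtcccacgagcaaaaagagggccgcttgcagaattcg
Gclm: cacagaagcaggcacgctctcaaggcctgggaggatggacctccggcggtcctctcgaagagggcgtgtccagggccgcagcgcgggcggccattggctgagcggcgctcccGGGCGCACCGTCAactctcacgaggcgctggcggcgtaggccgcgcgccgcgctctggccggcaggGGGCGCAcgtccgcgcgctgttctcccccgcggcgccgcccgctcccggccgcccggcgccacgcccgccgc
Sod1: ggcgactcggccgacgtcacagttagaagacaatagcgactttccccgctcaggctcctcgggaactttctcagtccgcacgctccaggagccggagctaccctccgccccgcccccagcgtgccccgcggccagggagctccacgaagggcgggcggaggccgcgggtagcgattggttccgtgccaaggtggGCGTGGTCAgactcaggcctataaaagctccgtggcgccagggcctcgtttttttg

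The Mt1 window held 1 metal response element core, TGCACAC, which ended 17 bases before the start. The Mt2 window held 3 metal response element cores, 1 of them read on the minus strand, and 1 antioxidant response element core, TGACTCAGC, 79 to 71 bases before the start. The Gclm window held 1 antioxidant response element core, read on the minus strand as GCACCGTCA, which overlapped 1 of its 2 metal response element cores. In the Sod1 window the minus-strand match GCGTGGTCA to the antioxidant response element core lay 56 to 48 bases before the start.

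Windows were found for 8 of 10 members, all but Hmox1 and Gclc. Nqo1 and Sod2 held neither core in their window, Srxn1 held 1 metal response element core, and 1 of 3 Txnrd1 windows held 1 antioxidant response element core. Over 32851 promoter windows of this length, 10.2% held the antioxidant and 21.4% the metal response element core. A match describes letters in the window and is not a measured binding site. Bases farther upstream, or after the RefSeq start used, were not searched. The counts therefore do not show how many cores a gene has in all, nor that a gene lacks one.

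Across the members, changes were called for genotype and none for diet. On chow, 1 member (Mt1) was higher and 3 (Hmox1, Gclm and Sod1) were lower in AR113Q, where 8.1% of all 24741 genes were called higher and 9.04% lower. On high-fat diet, 2 members (Mt2 and Nqo1) were higher and 2 (Gclm and Sod1) lower, beside 7.49% of genes called higher and 10.5% lower. Averaged over both diets, 3 members (Mt1, Mt2 and Nqo1) were higher and 3 (Hmox1, Gclm and Sod1) lower, beside 12.7% and 16.3% of genes. The median log2 fold change of the 10 members was 0.05 on chow and -0.13 on high-fat diet, and that of all genes -0.06 and -0.09. The members therefore moved in both directions, which their median does not show. The comparisons on chow and on high-fat diet share no array, and the averaged comparison uses the arrays of both.

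**Figure D1:**
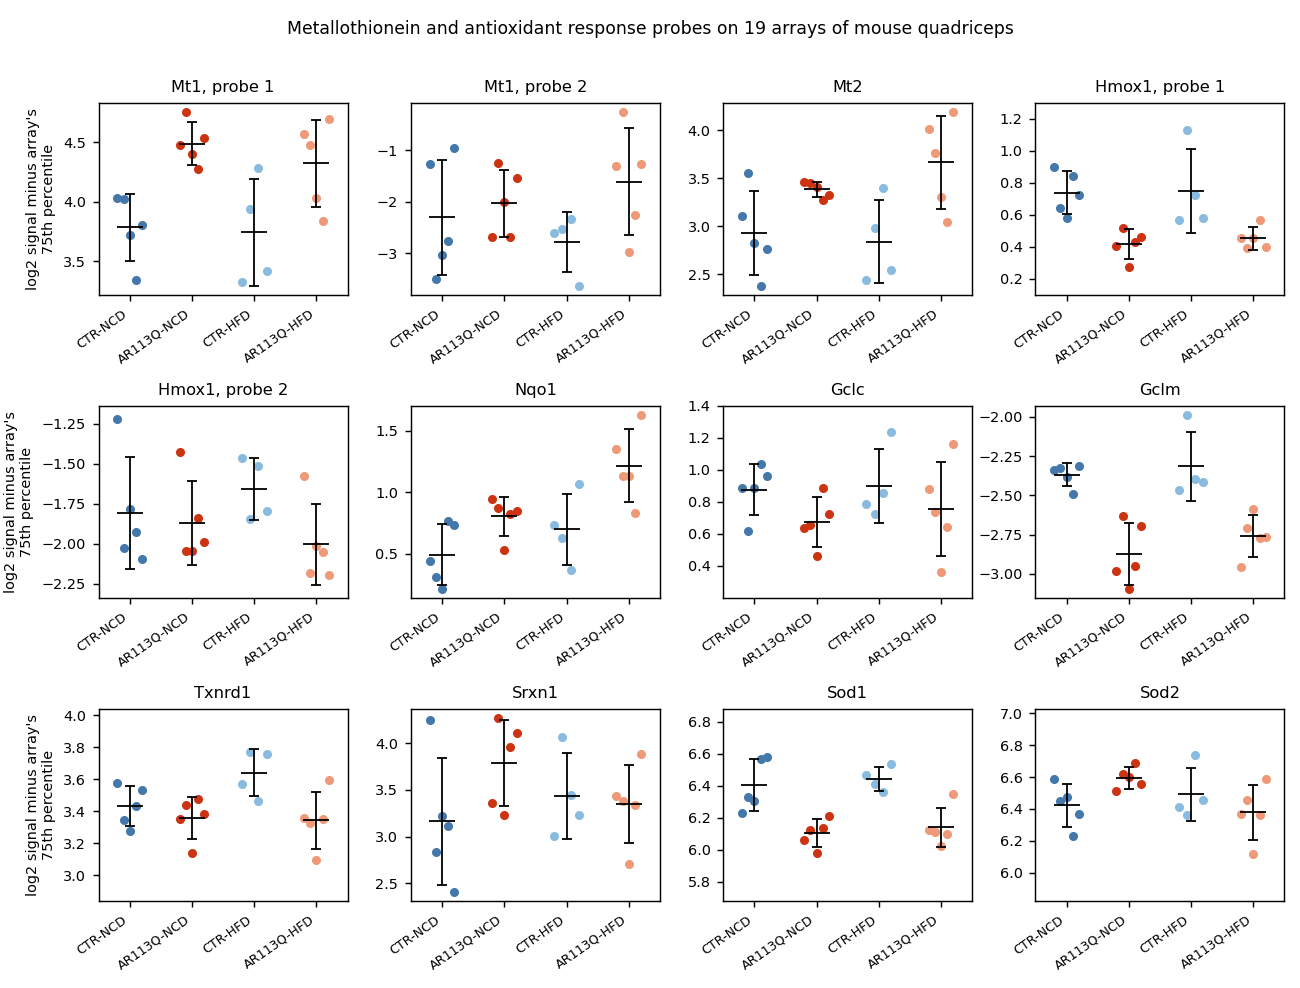
Log2 signal of each of the 12 probes (y axis, each array's 75th percentile at 0) in the 4 groups (x axis), with 1 point per array and bars for the mean ± SD. Gclm and Sod1 sit lower in both AR113Q groups than in the control group on the same diet with no overlap, and Mt1 probe 1 sits higher on chow, from 4.27 to 4.76 against 3.34 to 4.03.

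Mt1 and Mt2, the metallothioneins made in most tissues, had the largest called rises among the members. The brighter Mt1 probe (mm9 chr8:96704165-96704224) read 4.03, 4.02, 3.72, 3.34 and 3.81 in CTR-NCD and 4.48, 4.76, 4.40, 4.27 and 4.53 in AR113Q-NCD samples. Every AR113Q-NCD sample thus lay above every CTR-NCD sample. Group means were 3.79 ± 0.28 and 4.49 ± 0.18 (SD, n = 5 each), a 1.63-fold rise (log2 fold change 0.70, SE 0.20, limma adjusted p = 0.0206, exact permutation p = 0.00794, the smallest that 5 against 5 samples allow). On chow, 7.17% of probes were higher with no overlap between the groups.

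On high-fat diet the same Mt1 probe read 3.33, 3.94, 4.28 and 3.42 in CTR-HFD and 4.57, 4.47, 4.03, 3.84 and 4.70 in AR113Q-HFD samples. CTR-HFD replicates 2 and 3 lay within the AR113Q range. The difference of 0.58 (SE 0.21, 95% interval 0.13 to 1.03, limma adjusted p = 0.0693, exact permutation p = 0.0794) did not pass the threshold. It passed without CTR-HFD replicate 3 (0.76, limma adjusted p = 0.0168) or without AR113Q-HFD replicate 4 (0.70, 0.0295). It also passed with slide, the carrier of 3 or 4 arrays from several groups, as a block (0.68, 0.0181) or a random block (0.63, 0.0228) and with the replicate number as a block (0.54, 0.043). On chow, the Mt1 call was lost without CTR-NCD replicate 4 (0.59, 0.0606) or AR113Q-NCD replicate 2 (0.64, 0.0554). That call was also lost with median centring (0.76, limma adjusted p = 0.0536) or normexp background correction (0.97, 0.0849). The mean over both Mt1 probes lost it too (0.49, limma adjusted p = 0.395). Within slides the Mt1 difference was above 0 on 5 of 5 slides on chow (0.45 to 0.93) and on 3 of 4 on high-fat diet.

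A second probe named Mt1 (mm9 chr8:96703844-96703903) gave no call. It read -1.27, -3.49, -3.04, -2.76 and -0.96 in CTR-NCD, -2.69, -1.25, -2.0, -2.68 and -1.54 in AR113Q-NCD, -2.60, -2.54, -2.34 and -3.64 in CTR-HFD and -1.30, -0.25, -2.97, -2.25 and -1.26 in AR113Q-HFD samples. The groups overlapped on both diets, with SDs of 0.58 to 1.12. Its differences were 0.27 on chow (95% interval -0.87 to 1.41) and 1.17 on high-fat diet (-0.04 to 2.38), so the size of change seen by the brighter Mt1 probe lies within both intervals.

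Mt2 (mm9 chr8:96697371-96697430) read 3.11, 3.55, 2.83, 2.38 and 2.77 in CTR-NCD and 3.46, 3.46, 3.41, 3.28 and 3.33 in AR113Q-NCD samples. The AR113Q-NCD samples lay close together, and 4 of 5 CTR-NCD samples were below all of them. The difference of 0.46 (SE 0.24, 95% interval -0.04 to 0.96, limma adjusted p = 0.222, exact permutation p = 0.0556) was not called. On high-fat diet Mt2 read 2.44, 2.98, 3.40 and 2.55 in CTR-HFD and 4.02, 3.77, 3.30, 3.05 and 4.20 in AR113Q-HFD samples. CTR-HFD replicate 3 overlapped the AR113Q range and the other 3 controls did not. Group means were 2.84 ± 0.44 (SD, n = 4) for CTR-HFD and 3.67 ± 0.48 (SD, n = 5) for AR113Q-HFD, a 1.77-fold rise (0.82, SE 0.25, limma adjusted p = 0.0305, exact permutation p = 0.0476). This Mt2 call was lost without CTR-HFD replicate 1 (0.69, limma adjusted p = 0.104) or 4 (0.73, 0.0947) and without AR113Q-HFD replicate 1 (0.74, 0.0727), 2 (0.80, 0.0569) or 5 (0.69, 0.0803).

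Averaged over both diets, Mt1 and Mt2 rose by the same amount: 0.64 (SE 0.15, limma adjusted p = 0.00264) for Mt1 and 0.64 (SE 0.17, 0.00915) for Mt2. The interaction, that is, the genotype difference on high-fat diet minus that on chow, was -0.12 (95% interval -0.74 to 0.49) for Mt1 and 0.36 (-0.37 to 1.10) for Mt2, so the passing of a threshold on 1 diet only does not show that the diets differ.

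**Figure D2:**
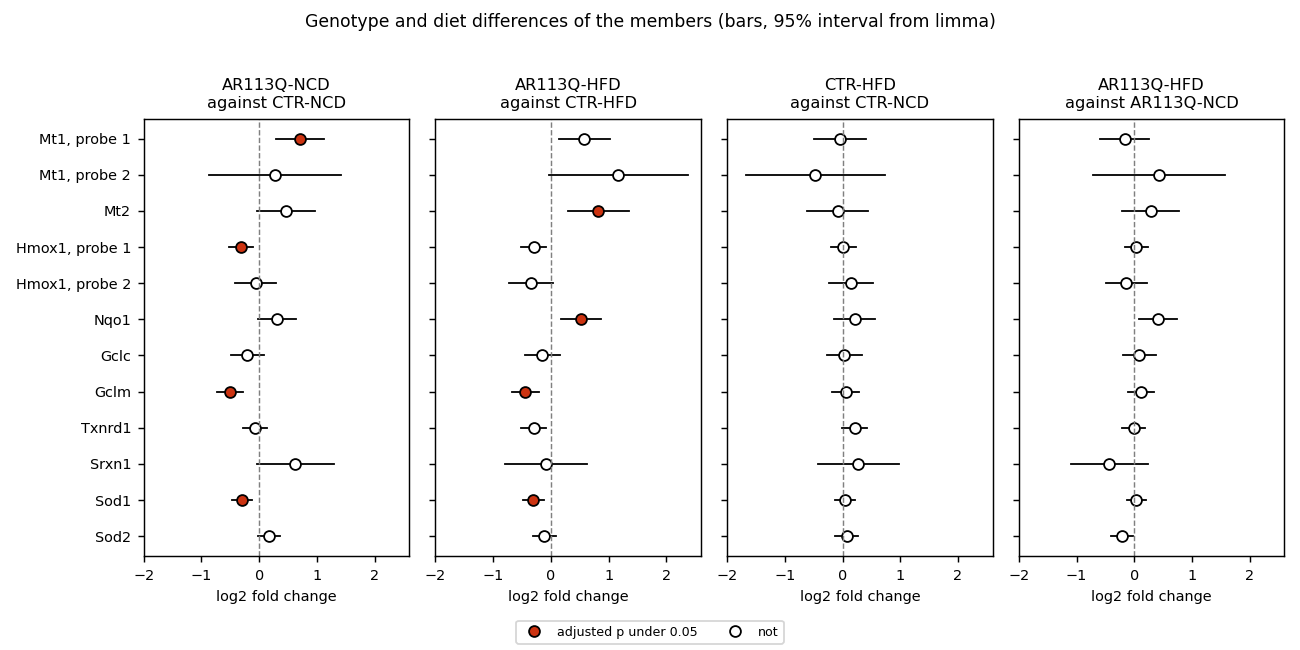
Log2 fold change of each probe (x axis, with its 95% confidence interval) for genotype on chow, genotype on high-fat diet and diet in each genotype, with called changes in red. Mt1, Mt2 and Nqo1 lie to the right and Hmox1, Gclm and Sod1 to the left of 0 in both genotype panels, and no diet change is called.

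Nqo1 and Hmox1, both well-known NRF2 target genes, moved in opposite directions. Nqo1, a quinone reductase, read 0.44, 0.31, 0.21, 0.76 and 0.73 in CTR-NCD and 0.94, 0.87, 0.54, 0.82 and 0.85 in AR113Q-NCD samples (probe at mm9 chr8:109912440-109912499). AR113Q-NCD replicate 3 fell among the controls and the other 4 lay above all of them. The difference of 0.31 (SE 0.16, 95% interval -0.02 to 0.64, limma adjusted p = 0.201, exact permutation p = 0.0556) was not called. On high-fat diet Nqo1 read 0.73, 0.63, 0.37 and 1.07 in CTR-HFD and 1.35, 1.14, 1.13, 0.83 and 1.63 in AR113Q-HFD samples. CTR-HFD replicate 4 and AR113Q-HFD replicate 4 crossed, and the other samples did not overlap. The 1.43-fold rise (0.52, SE 0.17, limma adjusted p = 0.0385, exact permutation p = 0.0397) was called. The Nqo1 difference was above 0 on 5 of 5 slides on chow and on 4 of 4 slides on high-fat diet (0.50 to 0.76). The call was lost without CTR-HFD replicate 1 (0.53, limma adjusted p = 0.0702), 2 (0.49, 0.091) or 3 (0.40, 0.121) and without AR113Q-HFD replicate 1 (0.48, 0.0802), 2 (0.54, 0.0516), 3 (0.54, 0.0552) or 5 (0.41, 0.101). Averaged over both diets Nqo1 rose by 0.41 (SE 0.11, limma adjusted p = 0.0102).

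Hmox1, the inducible heme oxygenase, which opens the heme ring, was lower. Its brighter probe (mm9 chr8:77624207-77624266) read 0.90, 0.64, 0.58, 0.84 and 0.72 in CTR-NCD and 0.41, 0.52, 0.27, 0.43 and 0.46 in AR113Q-NCD samples. On chow no sample of the groups overlapped, as for 8.27% of probes that were lower without overlap. Hmox1 fell by 0.32 (SE 0.10, fold 0.801, limma adjusted p = 0.0293, exact permutation p = 0.00794). This call was lost without CTR-NCD replicate 1 (-0.28, 0.0781), 4 (-0.29, 0.0722) or 5 (-0.32, 0.0511), or without AR113Q-NCD replicate 1 (-0.32, 0.0543) or 3 (-0.28, 0.0807), the second value in each pair being limma's adjusted p. The same call was lost with median centring (-0.26, 0.209), normexp background correction (-0.23, 0.145) or the mean over the probes of the gene (-0.19, 0.259).

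On high-fat diet Hmox1 read 0.57, 1.13, 0.72 and 0.58 in CTR-HFD and 0.45, 0.39, 0.45, 0.57 and 0.40 in AR113Q-HFD samples. The highest AR113Q-HFD sample lay just below the lowest control, and 8.5% of all probes were lower without overlap on this diet. The difference of -0.30 (SE 0.10, 95% interval -0.51 to -0.08) had a limma adjusted p of 0.0544 and an exact permutation p of 0.00794, the smallest possible. With slide as a block it was -0.32 and called (limma adjusted p = 0.0359), and as a random block -0.31 (0.026). The averaged difference of -0.31 (SE 0.07, limma adjusted p = 0.00281) was called. Hmox1 was lower within 5 of 5 slides on chow and 4 of 4 on high-fat diet.

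The dimmer Hmox1 probe (mm9 chr8:77620797-77620856) read -1.22, -2.02, -1.78, -1.92 and -2.09 in CTR-NCD, -1.42, -2.05, -2.05, -1.84 and -1.99 in AR113Q-NCD, -1.46, -1.84, -1.52 and -1.80 in CTR-HFD and -1.57, -2.18, -2.01, -2.05 and -2.20 in AR113Q-HFD samples. Its groups overlapped and it was not called: -0.06 on chow (95% interval -0.42 to 0.30) and -0.35 on high-fat diet (-0.73 to 0.03). On high-fat diet it was called with slide (-0.34, limma adjusted p = 0.0109) or the replicate number (-0.30, 0.025) as a block.

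Gclc and Gclm encode the catalytic and the modifier subunit of glutamate-cysteine ligase, the rate-limiting enzyme of glutathione synthesis. Gclm, read by a probe whose mm9 coordinates (chr3:121962174-121964809) cross an exon junction, had the smallest adjusted p of the 10 members in each genotype comparison. It read -2.34, -2.33, -2.38, -2.49 and -2.31 in CTR-NCD and -2.98, -2.63, -3.10, -2.95 and -2.70 in AR113Q-NCD samples. On high-fat diet it read -2.46, -1.99, -2.40 and -2.42 in CTR-HFD and -2.96, -2.71, -2.59, -2.77 and -2.76 in AR113Q-HFD samples. No AR113Q sample reached the lowest control on the same diet. Gclm fell by 0.50 on chow (SE 0.10, fold 0.706, limma adjusted p = 0.00282) and by 0.44 on high-fat diet (SE 0.11, fold 0.736, limma adjusted p = 0.00981), with an exact permutation p of 0.00794 on each diet. Averaged over both diets it fell by 0.47 (SE 0.08, limma adjusted p = 0.000148). No single library, left out, removed either call, and Gclm was lower within 5 of 5 slides on chow (-0.72 to -0.30) and 4 of 4 on high-fat diet (-0.72 to -0.19). Both calls were lost with median centring (-0.45 on chow and -0.38 on high-fat diet) and with normexp background correction (-0.80 and -0.27). The call on high-fat diet was also lost with quantile normalization (-0.42, limma adjusted p = 0.0669), the authors' values (-0.42, 0.0936) or only the groups of the comparison (-0.44, 0.0511).

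Gclc (mm9 chr9:77641296-77641355) read 0.88, 0.61, 0.89, 1.04 and 0.96 in CTR-NCD and 0.64, 0.66, 0.46, 0.89 and 0.73 in AR113Q-NCD samples. In CTR-HFD samples it read 0.78, 0.73, 0.86 and 1.24, and in AR113Q-HFD samples 0.88, 0.73, 0.36, 0.64 and 1.16. The groups overlapped on both diets and Gclc was not called. Its differences were -0.20 on chow (95% interval -0.49 to 0.08, limma adjusted p = 0.367) and -0.15 on high-fat diet (-0.45 to 0.16, 0.562). The interval on chow ends just short of the fall of 0.50 measured for Gclm there. On high-fat diet the interval takes in the Gclm fall of 0.44. The difference between the 2 subunits was not tested.

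Txnrd1, the cytosolic thioredoxin reductase, and Srxn1, sulfiredoxin, which repairs overoxidised peroxiredoxins, were not called in the fit reported here. Txnrd1 (mm9 chr10:82360230-82360289) read 3.57, 3.35, 3.28, 3.43 and 3.53 in CTR-NCD, 3.35, 3.44, 3.14, 3.48 and 3.38 in AR113Q-NCD, 3.57, 3.77, 3.47 and 3.76 in CTR-HFD and 3.36, 3.33, 3.09, 3.35 and 3.60 in AR113Q-HFD samples. On high-fat diet 4 of 5 AR113Q samples lay below all controls, and replicate 5 did not. The difference there was -0.30 (SE 0.10, 95% interval -0.51 to -0.08, limma adjusted p = 0.0526, exact permutation p = 0.0476), and on chow it was -0.07 (-0.28 to 0.13, 0.682). The Txnrd1 difference on high-fat diet passed the threshold without AR113Q-NCD replicate 3 (limma adjusted p = 0.0446), CTR-HFD replicate 3 (-0.35, 0.0288) or AR113Q-HFD replicate 5 (-0.36, 0.02). It also passed with slide as a block (-0.31, 0.00578) or a random block (-0.30, 0.0114) and with the replicate number as a block (-0.33, 0.00516). Without a block it passed with a trended, robust variance (0.0318) or with only probes well above background on all arrays (0.0373). Averaged over both diets, Txnrd1 differed by -0.19 (limma adjusted p = 0.0552), and with slide as a block by -0.19 (0.00632).

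Srxn1 (mm9 chr2:151937009-151937068) read 4.25, 2.83, 3.22, 3.11 and 2.41 in CTR-NCD and 3.36, 4.27, 3.23, 3.96 and 4.10 in AR113Q-NCD samples. CTR-NCD replicate 1 lay near the top of the AR113Q-NCD samples and the other 4 controls lay below all of them. The difference was 0.62 (SE 0.31, 95% interval -0.04 to 1.29, limma adjusted p = 0.208), and without CTR-NCD replicate 1 it was 0.89 and called (0.0384). On high-fat diet Srxn1 read 3.0, 4.06, 3.45 and 3.23 in CTR-HFD and 3.43, 3.38, 2.71, 3.34 and 3.89 in AR113Q-HFD samples, which overlapped (-0.08, 95% interval -0.79 to 0.62). Its interaction of -0.71 (-1.68 to 0.26) had an unadjusted p of 0.141 from limma.

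Sod1 and Sod2, the cytosolic copper-zinc and the mitochondrial manganese superoxide dismutase, turn superoxide into hydrogen peroxide. Sod1 (mm9 chr16:90226509-90226568) read 6.23, 6.33, 6.30, 6.57 and 6.58 in CTR-NCD and 6.06, 6.12, 5.98, 6.14 and 6.22 in AR113Q-NCD samples. In CTR-HFD samples it read 6.47, 6.41, 6.36 and 6.54, and in AR113Q-HFD samples 6.13, 6.11, 6.02, 6.10 and 6.35. Every AR113Q sample lay below every control on both diets, though only just at the nearest point. Sod1 fell by 0.30 on chow (SE 0.08, fold 0.813, limma adjusted p = 0.0159, exact permutation p = 0.00794) and by 0.30 on high-fat diet (SE 0.09, fold 0.811, limma adjusted p = 0.0204, exact permutation p = 0.0159). It was lower within 5 of 5 slides on chow and 4 of 4 on high-fat diet. The call on high-fat diet was lost without CTR-HFD replicate 1 (-0.29, limma adjusted p = 0.0512) or 4 (-0.27, 0.0667) or AR113Q-HFD replicate 3 (-0.27, 0.0536). The Sod1 fall also depended on the scaling: with quantile normalization it was -0.18 on chow (0.0673) and -0.12 on high-fat diet (0.285), and with normexp background correction the difference on chow was 0.019, slightly above 0.

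Sod2 (mm9 chr17:13208074-13208133) read 6.59, 6.45, 6.47, 6.23 and 6.37 in CTR-NCD and 6.51, 6.62, 6.60, 6.69 and 6.55 in AR113Q-NCD samples. In CTR-HFD samples it read 6.41, 6.36, 6.74 and 6.45, and in AR113Q-HFD samples 6.37, 6.46, 6.12, 6.36 and 6.59. The groups overlapped on both diets. Sod2 differed by 0.17 on chow (95% interval -0.02 to 0.37, limma adjusted p = 0.234, exact permutation p = 0.0238) and by -0.11 on high-fat diet (-0.32 to 0.09, 0.497). Under quantile normalization the rise on chow was 0.32 and was called (limma adjusted p = 0.0138).

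**Figure D3:**
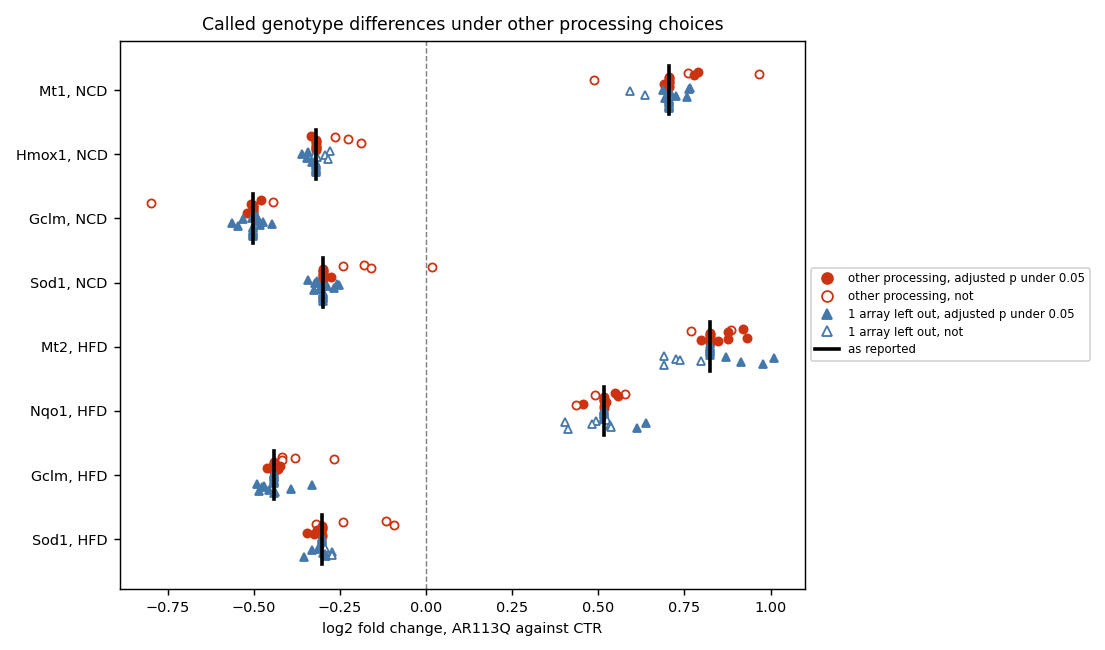
Log2 fold change (x axis) of the members called in a genotype comparison, under the analysis used here, under each alternative processing and with each array left out. Gclm stays left of 0 at every setting, and Sod1 on chow comes to 0.019 under normexp background correction.

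No member was called for diet. In controls, 0 of 12 probes were called and 0 passed an unadjusted p under 0.05 in limma, beside 0% of all probes called and 8.7% with an unadjusted p under 0.05. In AR113Q mice 0 of 12 were called, beside 0.025% of all probes and 6.69% with an unadjusted p under 0.05, and 2 passed that unadjusted threshold. These were Nqo1, which was 0.41 higher on high-fat diet (95% interval 0.08 to 0.74, unadjusted p = 0.0177, limma adjusted p = 0.619), and Sod2, which was lower (-0.22, unadjusted p = 0.0301, limma adjusted p = 0.693). Nqo1 was higher on high-fat diet within 4 of 4 slides in controls (0.15 to 0.33) and 5 of 5 in AR113Q mice, and its diet difference averaged over both genotypes was 0.31 (95% interval 0.07 to 0.55, unadjusted p = 0.0149, limma adjusted p = 0.346). For the interaction 0 of 12 probes were called, beside 0% of all probes, and 1, Sod2, had an unadjusted p under 0.05 (limma, 0.0473), as did 4.69% of all probes. The widest intervals of the diet differences belonged to the dimmer Mt1 probe, -1.68 to 0.74 in controls and -0.72 to 1.57 in AR113Q mice, which hold changes as large as the genotype change of the brighter probe.

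Some members varied together among samples of the same group. After removal of the group means, 45 pairs of members were compared over 19 arrays by permutation within groups, with Benjamini-Hochberg adjustment over the 45 pairs. Mt1 and Mt2 were the closest pair (Pearson r = 0.926, Spearman rho = 0.907, permutation p = 1e-05 for both, the smallest possible, adjusted 0.00045), and r was 0.938 without the 2 arrays farthest from the median. The controls low in Mt1, such as CTR-NCD replicate 4 and CTR-HFD replicates 1 and 4, were also low in Mt2.

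A further 4 pairs passed an adjusted permutation p under 0.05, all with positive r. Nqo1 and Sod1 had r = 0.780 and rho = 0.788 (adjusted permutation p = 0.0132 and 0.0108), with r = 0.682 without 2 arrays. Gclc and Sod1 had r = 0.699 and rho = 0.698 (adjusted permutation p = 0.0132 and 0.0185), with r = 0.667 without 2 arrays. Nqo1 and Gclc had r = 0.707 and rho = 0.702 (adjusted permutation p = 0.0485 and 0.0402), with r = 0.658 without 2 arrays. Gclc and Txnrd1 had r = 0.707 and rho = 0.637 (adjusted permutation p = 0.0485 and 0.0636), with r = 0.564 without 2 arrays. With slide means also removed, 7 pairs passed by Pearson r. Of the 5 pairs above, Mt1 and Mt2 (r = 0.885) and Nqo1 and Sod1 (0.673, but not by rho, adjusted permutation p = 0.114) were among them, while Gclc and Sod1 (0.318), Nqo1 and Gclc (0.464) and Gclc and Txnrd1 (0.584) did not. The other 5 were Hmox1 and Gclm (r = 0.756), Mt1 and Sod2 (0.742), Txnrd1 and Srxn1 (0.739), Mt2 and Sod2 (0.726) and Mt1 and Srxn1 (0.572), of which Hmox1 and Gclm and Txnrd1 and Srxn1 also passed by rho. Under quantile normalization 1 pair of 45 passed, Mt1 and Mt2 (r = 0.934).

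**Figure D4:**
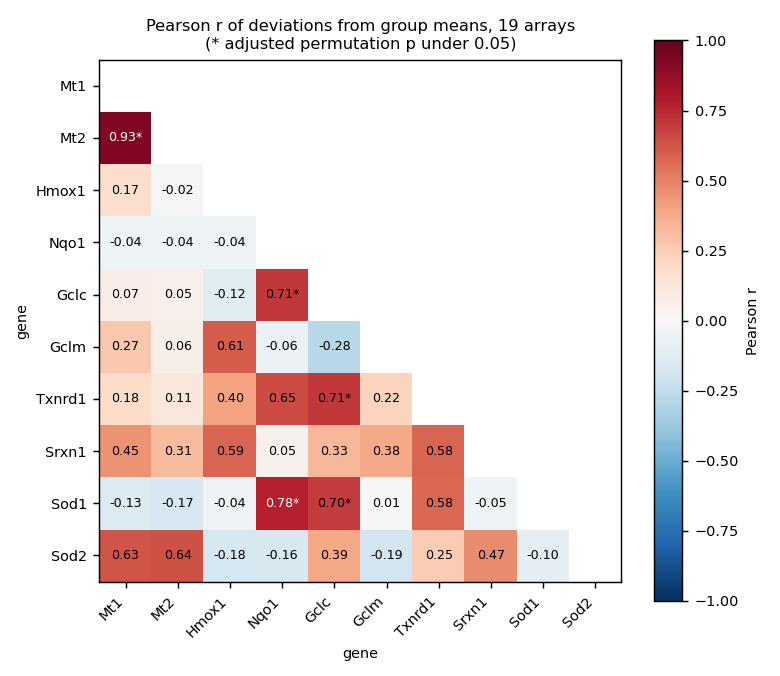
Pearson r between each pair of members over 19 arrays after removal of the group means (colour scale from -1 to 1), with an asterisk at an adjusted permutation p under 0.05. The strongest cell joins Mt1 and Mt2, at 0.926, and 30 of 45 pairs are positive.

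Outside the members, the genes closest to Mt1 over the 19 arrays, by Pearson r among 24640 genes, were Gbe1 (0.951), Acss2 (0.912) and Atf5 (0.906). Gbe1 is the glycogen branching enzyme, Acss2 makes acetyl-CoA from acetate and Atf5 is a stress-responsive transcription factor. Closest to Mt2 were Pip5k1a (0.984), Scnn1a (0.893) and Olfm1 (0.886). Within groups, r was 0.896 for Mt1 with Gbe1 and 0.971 for Mt2 with Pip5k1a. Closest to Nqo1 were Usp20 (0.947), Cyld (0.942) and Tbc1d22a (0.934), of which the first and second encode deubiquitinases. Closest to Gclm were 1810026J23Rik (0.922), Acsl3 (0.910) and Klhl21 (0.909), and closest to Hmox1 was Pprc1 (0.871). For Sod1 the highest values belonged to array features with no gene symbol, followed by Ubxn6 (0.944). These values include the differences between groups and are given as a description.

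The regulators of the antioxidant response also moved in both directions. Of 12 genes of NRF2 and its regulators, 2 were higher and 3 lower on chow, and 3 higher and 2 lower on high-fat diet. For this list and those below, the shares over all genes were 8.1% higher and 9.04% lower on chow. On high-fat diet these shares were 7.49% and 10.5%. Without overlap, 7.17% of all probes were higher and 8.27% lower on chow, and 7.19% and 8.5% on high-fat diet. Nfe2l2, which encodes NRF2, was higher on chow with no overlap between the groups (0.51, SE 0.10, limma adjusted p = 0.00204), and on high-fat diet it differed by 0.29 (0.0768). Keap1 was not called (-0.14 on chow and -0.05 on high-fat diet). Bach1 was lower on both diets (-0.33, limma adjusted p = 0.0137, and -0.40, 0.00561). Cul3, the scaffold of the ligase through which KEAP1 marks NRF2, was lower on both (-0.56 and -0.49), without overlap. On high-fat diet Mafk, a small MAF partner (0.84), and Nfe2l1, an NRF2 relative (0.48), were higher without overlap. Bach2 was higher on both diets (0.44 and 0.57), without overlap on high-fat diet. Sqstm1, the p62 autophagy adaptor, was lower on chow (-0.22). The median of the list was -0.05 on chow and 0.05 on high-fat diet, against -0.06 and -0.09 over all genes.

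Of 24 other NRF2 target genes tested from a list of 27, 8 were higher and 3 lower on chow, and 5 higher and 4 lower on high-fat diet. Among all genes 8.1% were higher and 9.04% lower on chow, and 7.49% and 10.5% on high-fat diet. Aox1, aldehyde oxidase (0.76 on chow and 0.87 on high-fat diet), Pgd, of the pentose phosphate pathway (0.55 and 0.57), and Trim16 (0.51 and 0.62) were higher on both diets without overlap, and Gstm2, a glutathione transferase, was higher on chow (0.56). Me1, malic enzyme, was lower on both (-0.60 and -0.68) without overlap. Gstp1, another glutathione transferase (-0.25 and -0.26), and Fth1, the ferritin heavy chain (-0.22 and -0.27), were also lower on both diets, Gstp1 without overlap on chow and Fth1 on high-fat diet. The median of the list was 0.23 on chow and 0.11 on high-fat diet. Gsta2 and Slc7a11 were too dim to be tested, and Gsta1 is not named on the array.

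Of 3 other genes of heme breakdown, Hmox2, the constitutive heme oxygenase, was higher on both diets (0.33 and 0.28) without overlap, and Blvrb, a biliverdin reductase, was higher on high-fat diet (0.40). On both diets Hmox1 and Hmox2 thus differed in sign.

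Of 35 other superoxide, peroxide and thiol enzymes, 7 were higher and 7 lower on chow, and 5 higher and 8 lower on high-fat diet. The shares over all genes were 8.1% higher and 9.04% lower on chow, and 7.49% and 10.5% on high-fat diet. Cat, catalase (0.82), Sesn3 (0.79) and Sesn1 (0.55), of the sestrin family, and Msrb2, a methionine sulfoxide reductase (0.46), were the largest rises on chow without overlap, and Cat was also higher on high-fat diet (0.58). Gpx3, the secreted glutathione peroxidase, was lower on chow (-1.02) and on high-fat diet (-0.77), each without overlap. Msrb3 (-0.57), Gpx1 (-0.41) and Gpx7 (-0.35) were lower on chow, and Gpx7 was also lower on high-fat diet (-0.28). On high-fat diet, Sesn3 (0.87), Ggt7 (0.53) and Gss, glutathione synthetase (0.47), were higher, and Txnrd2, the mitochondrial thioredoxin reductase (-0.37), Glrx2 (-0.35) and Glrx3 (-0.30) were lower, all without overlap. Of these Sesn3, Gss (0.36) and Txnrd2 (-0.22) were called in the same direction on chow. The median of the list was 0.04 on chow and -0.06 on high-fat diet.

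Of 18 zinc transporters and other metallothionein partners, 1 was higher and 3 lower on chow, and 0 higher and 3 lower on high-fat diet. Beside these, 8.1% of all genes were higher and 9.04% lower on chow, and 7.49% and 10.5% on high-fat diet. The same 3 zinc transporters were lower on both diets without overlap: Slc30a2 (-1.62 and -1.36), Slc30a4 (-0.60 and -0.53) and Slc39a13 (-0.48 and -0.48). Mtf1, the metal-responsive factor, was not called (-0.03 and -0.21), nor was Slc30a1, a zinc exporter induced by MTF1 (0.15 and -0.06). The median of the list was -0.04 on each diet. Of 8 glucocorticoid-responsive genes, 0 were higher on either diet, while 2 were lower on chow and 4 on high-fat diet. Sgk1 was lower on both (-1.31 and -1.49), and Tsc22d3 (-0.66) and Klf9 (-0.28) on high-fat diet, without overlap. The median of this list was -0.08 on chow and -0.13 on high-fat diet. In all 6 lists, 0 genes were called in either diet comparison.

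**Figure D5:**
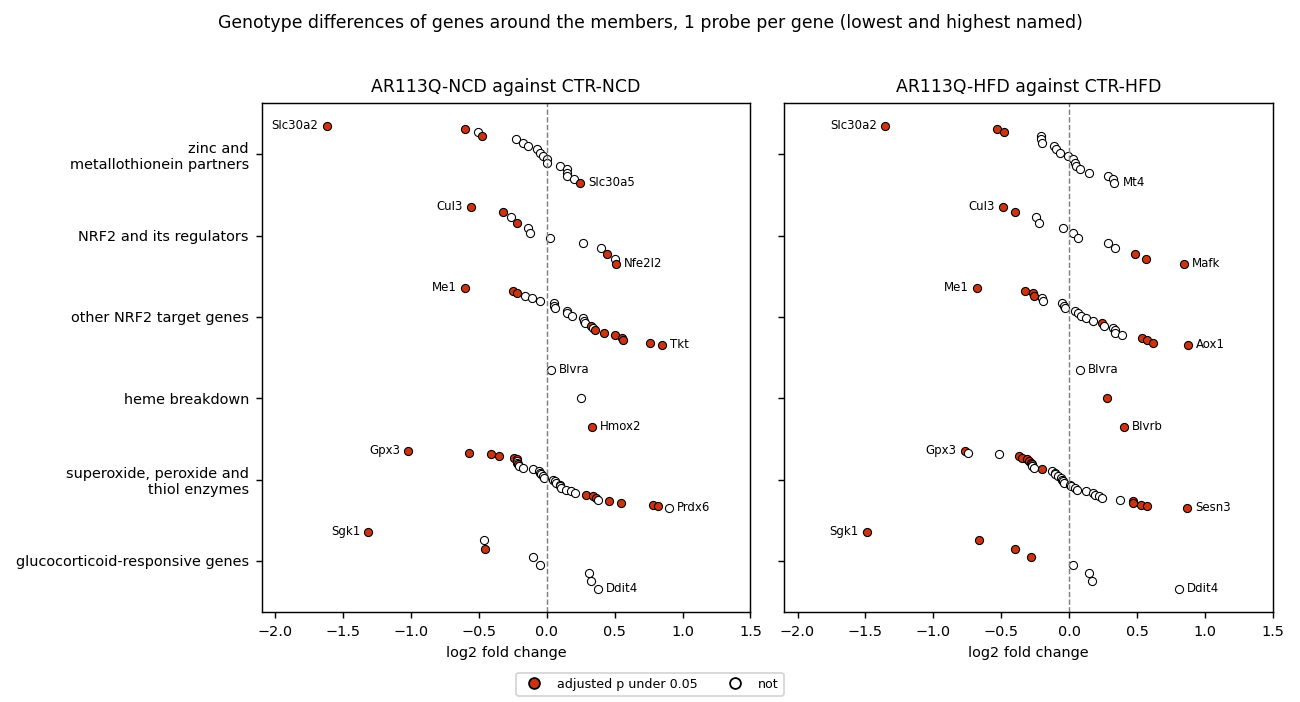
Log2 fold change (x axis) of each gene of 6 lists (rows) for AR113Q against control on chow and on high-fat diet, with genes called at an adjusted p under 0.05 in red. Every list with more than 3 genes holds values on both sides of 0; Slc30a2 is the lowest zinc gene at -1.62 and Gpx3 the lowest peroxide enzyme at -1.02 on chow.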

How the data were processed

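Spot intensities were deposited per array; per the labels and file headers the authors used one Cy3 channel and Agilent Feature Extraction (10.7.3.1 in the submitters' processing notes), which subtracted the background and removed trends, but set no common scale across arrays. A table of log2 values per transcript was deposited too, whose normalization is not given in the sources used here; it served as an alternative and holds the representative probe of 9 of 10 members. Intensities were taken to log2, outlier spots left out, spots of a probe averaged (43020 spots, 39429 probes) and the array's 75th percentile subtracted. Testing required that a share of 0.5 or more of a probe's spots be well above background, on 4 arrays or more.

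The 4 groups were fitted in limma 3.58.1 (R 4.3.3, and data.table, version 1.17.8), which the study's methods also name, with Benjamini-Hochberg adjustment over all probes and 2-sided exact permutation tests for single members. Plots were made in Python 3.11.15 (matplotlib 3.10.9, numpy 2.4.6). The limma fit was tested on simulated arrays with independent noise and known shifts in AR113Q-NCD, for the genotype comparison on chow. The simulation held no slide structure, and the other steps were not tested this way. The number of arrays limits the precision. Groups follow the labels. The text names every member, Nfe2l2, Keap1, Bach1, Mtf1 and Slc30a1, up to 4 called genes per list and direction without overlap, and the 3 genes most like a called member. Members and lists were chosen with earlier results of these data known. Coordinates of probes are mm9, as in the files; promoters are RefSeq's, in GRCm38.p6.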

Additional observations from a re-analysis of the deposited data

Results flagged for a closer look

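Of 48 groups of a probe with 4 or 5 samples, 1 held a sample far from the others: Gclm in CTR-HFD replicate 2, at -1.99, the highest of its group, with the nearest sample at -2.40 and a gap of 0.865 of the group's range. Chance flags about 1 in 20 groups. This sample is a control, and the Gclm call on high-fat diet held without it.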

How the results depend on the processing

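On chow, 4 members were called. The count was 0 with median centring, 0 with normexp background correction, 2 with the mean over the probes of a gene, 1 with the fold thresholds of 1.5 and 0.6 added, and 2 to 4 with each replicate left out. On high-fat diet, 4 were called. The count was 0 with median centring, 0 with normexp, 0 with only the groups of the comparison in the fit and 1 with the fold thresholds. It was 7, with Mt1, Hmox1 and Txnrd1 added, with only probes well above background on all arrays, with slide as a block, with slide as a random block and with a trended, robust variance, and 2 to 5 with each replicate left out. Averaged over both diets, 6 were called, 2 with normexp and 2 with the fold thresholds, and 6 to 7 with each replicate left out. Of the pairs of members, 5 passed, and 7 did with slide means removed, 1 with quantile normalization and 1 of 36 with the authors' values. Sod1 on chow reversed with normexp, to 0.019 (limma adjusted p = 0.914). Normexp moved the median log2 fold change of all probes to -0.57 on chow and -0.32 averaged, from -0.06 and -0.07, so values under it are relative to that shift. Beyond this the causes were not tested. Apart from the fold thresholds, the Gclm call was kept in 31 of 33 alternatives on chow and 28 of 33 on high-fat diet, Mt1 on chow in 28 of 33, Mt2 on high-fat diet in 25 of 33, Nqo1 on high-fat diet in 22 of 33, Hmox1 on chow in 24 of 32, and Sod1 in 29 and 25 of 33. These alternatives include fits without an array of neither compared group, where the fold change could not move. The counts thus make a call look steadier than fits without an array of the compared groups do. Calls lost in those fits, mainly of Nqo1, Mt2 and Hmox1, are given with each member above. The number of arrays and the spread of dim probes limit what could be detected.

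With the replicate number as a block, 6 members were called on high-fat diet, with Mt1 and Txnrd1 added. Deviations from the group means correlated at -0.21 to 0.538 between samples with the same number (median 0.237, 19 of 27 over 0.1) and at a median of -0.09 between samples with other numbers (27 of 108 over 0.1), and 14 of 19 arrays correlated best with their own number. The numbers follow the slides except in CTR-HFD replicate 4. The labels name no shared origin for these numbers, but apart from CTR-HFD replicate 4 samples with the same number share a slide. The fit reported here has no block, so it leaves this pairing out, and the blocks were kept as alternatives. With slide as a block, Mt1, Hmox1 and Txnrd1 were also called on high-fat diet.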

Other observations

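After the levels of the fiber markers were seen, each member was set against the mean level of the slow fiber and of the skeletal muscle fiber markers over 19 arrays, with group means removed, which gave 20 relations. After adjustment over the 20, 0 passed 0.05. For slow fiber markers, Pearson r was 0.666 for Sod2 (Spearman rho 0.575, permutation p = 0.0193 and 0.0305, adjusted 0.285 and 0.368, r = 0.583 without 2 arrays and 0.690 with slide means removed) and 0.611 for Mt2 (rho 0.525, permutation p = 0.0349 and 0.0722, adjusted 0.285 and 0.430, r = 0.494 and 0.742). For Mt1 it was 0.528 (rho 0.474, permutation p = 0.084 and 0.0969, adjusted 0.285 and 0.430, r = 0.314 and 0.671). For Gclm, which fell on both diets, r was -0.27 with the slow and 0.427 with the skeletal muscle fiber markers (permutation p = 0.35 and 0.0578).

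The authors' log2 values gave Sod2 as called on chow (0.31, limma adjusted p = 0.0066) and Mt1 as called on high-fat diet (0.70, 0.039). With them Sod1 was not called on chow (-0.16, limma adjusted p = 0.175) or on high-fat diet (-0.09, 0.507). Gclm was not called with them on high-fat diet (-0.42, limma adjusted p = 0.0936).

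Of 8 glucocorticoid-responsive genes, Per1 was read by a pair of probes that disagreed: 0.31 and 0.03 for the brighter and -0.69 and -0.72 for the dimmer probe, on chow and on high-fat diet.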
